A study of Mus musculus with 91 samples.

Results

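The livers of 5 adult male C57BL mice given 1,4-dichlorobenzene (DCB) were compared with those of 5 mice given its vehicle, corn oil. These 10 arrays were taken from the 91 of a series of short exposures to carcinogenic and non-carcinogenic chemicals, by their labels and not by any measured value, and the features described were all 18193 genes that a probe set with a single symbol represents. DCB was given at 600 mg/kg by oral gavage each day for 28 days, and the controls were gavaged with corn oil (0 mg/kg) for the same 28 days. Mice were on a C57BL/6J background with no transgene named in their labels, were assigned to groups at random, and each array held total RNA of 1 whole-liver sample. The age is given only as adult, and no date of dosing, extraction or scanning is given in the sources used here.

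DCB, the active substance of some moth repellents and toilet deodorants, is a chlorinated benzene that the liver oxidises to chlorinated phenols, which are then conjugated and excreted. It causes liver tumours in mice after long exposure and is usually not found to be mutagenic. The constitutive androstane receptor (CAR, gene Nr1i3) is a nuclear receptor of hepatocytes that, once activated by drugs such as phenobarbital, raises cytochromes P450 of the Cyp2b and Cyp2c families, conjugating enzymes and efflux pumps. NRF2 (gene Nfe2l2) is a transcription factor that is released from its inhibitor by electrophiles and oxidants and acts through antioxidant response elements on genes of glutathione synthesis, glutathione transfer, quinone reduction and NADPH supply.

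Array medians of the 10 livers lay between 5.19 and 5.25 on the log2 scale. DCB liver 1 stood apart from the others of its group: its genes deviated from the group's median by 0.281 on average, against 0.112 to 0.147 in the other DCB livers and 0.124 to 0.157 in the corn oil livers. Hepatocyte markers were at high levels in both groups, with a mean over 13 genes between 13.74 and 14.17 in DCB livers and between 14.15 and 14.26 in corn oil livers. Of these 13, Hnf4a, Ahsg, Fgb and Apoa1 fell, by 0.54, 0.44, 0.37 and 0.15 on the log2 scale, where 1.67% of all genes tested fell. With DCB liver 1 left out 2 of the 13 fell, and none of these 4 was called with only these 10 arrays in the model, or with only the 3 groups given corn oil (DCB, cyproterone acetate and the vehicle alone). No marker of Kupffer cells (17), endothelium (16), stellate cells (16), bile duct (8), T and NK cells (12), B cells (7), MHC class II cells (9), neutrophils (7), erythroid cells (4) or adipocytes and pancreas (6) passed limma's test. At an unadjusted p below 0.05, 1 Kupffer, 1 bile duct, 3 T and NK cell and 1 erythroid marker differed, where 14.9% of all genes tested did. DCB liver 2 stood apart for lists of immune genes: its mean was 8.20 for 24 interferon response genes against 6.83 to 7.11 in the other DCB livers, 7.74 against 6.72 to 6.91 for MHC class II cells, 5.86 against 4.99 to 5.33 for T and NK cells and 9.53 against 8.34 to 8.87 for Kupffer cells. In corn oil livers these means ran from 6.96 to 7.42, 6.61 to 7.01, 4.99 to 5.20 and 8.15 to 9.08. Without DCB liver 3 or 4, 2 of the 12 T and NK cell markers were called higher, without DCB liver 5 or corn oil liver 3, 4 or 5, 1 was, and without DCB liver 2 none was. In whole liver, fewer cells of a type and less RNA per cell cannot be told apart.

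DCB changed 696 genes (3.83% of those tested), with 392 higher (2.15%) and 304 lower (1.67%), at an adjusted p below 0.05, from limma's moderated test with Benjamini-Hochberg adjustment over all 18193 genes. Of these, 63 rose (0.346%) and 18 fell (0.0989%) at least 2-fold, and the median log2 difference was 0.57 among all rises and -0.52 among all falls. All 5 DCB livers lay above all 5 corn oil livers in 252 of the 392 and below them in 176 of the 304. At an unadjusted p below 0.05, 2718 genes (14.9%) differed. Over all genes tested, DCB livers lay wholly above in 428 (2.35%) and wholly below in 350 (1.92%). Without DCB liver 1, 265 genes rose and 129 fell, and 350 of the 696 calls were kept. With only these 10 arrays in the model, 183 rose and 137 fell, of which 271 were among the 696. With only the 3 groups given corn oil, 164 rose and 66 fell. The p-values measure the spread between single mice. For the 696 calls this spread was pooled over all 19 groups of the series, and not taken from these 10 livers alone. The other groups include mice given other compounds or vehicles and mice labelled hCAR/hPXR, a different genotype. The 12 largest rises were called in each of these fits.

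The largest rise was that of Cyp2b10, the P450 by which CAR activity in mouse liver is usually read. Its log2 level was 11.92, 12.35, 12.09, 12.30 and 13.19 in the 5 DCB livers and 5.83, 5.58, 5.87, 6.19 and 6.01 in the corn oil livers. No liver of one group came near the other. The difference was 6.47 ± 0.467 (SE), or 88.9-fold, with a 95% confidence interval of 5.55 to 7.40 and an adjusted p of 2.69e-19 by limma. The other 2 probe sets for Cyp2b10 gave larger differences, of 7.86 and 7.99, outside that interval, so the size depends on the probe set. Cyp2c55, a P450 of fatty acid and drug oxidation that also responds to CAR, rose from a mean of 7.48 ± 0.266 (SD, n = 5) to 12.24 ± 0.425 (SD, n = 5), by 4.75. Its DCB values ran from 11.84 to 12.80 and its corn oil values from 7.17 to 7.78, so the groups were far apart.

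**Figure D1:**
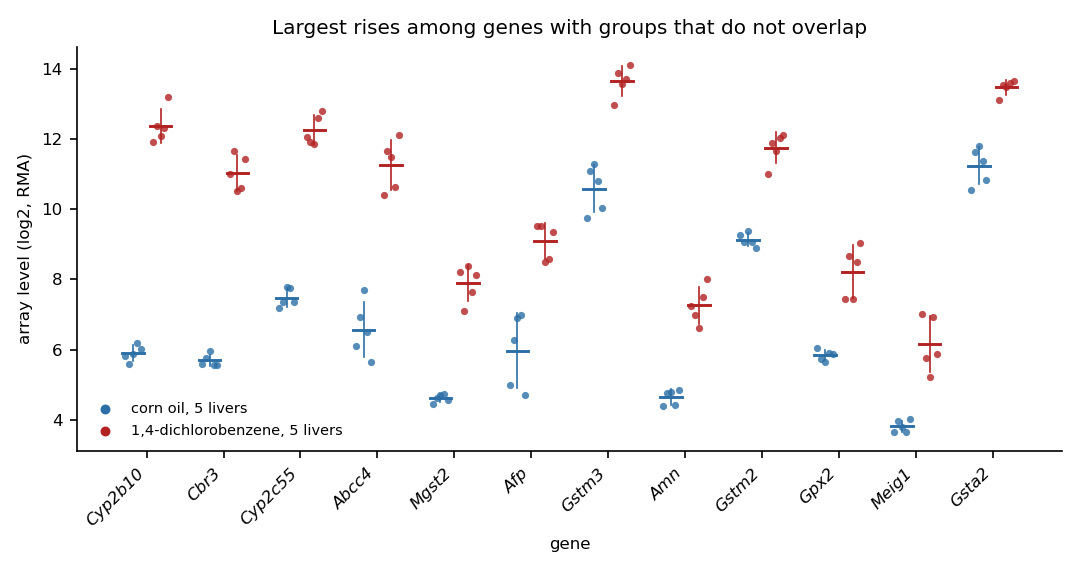
Log2 array level (vertical axis) of the 12 genes with the largest rises, among called genes whose groups do not overlap, in each of the 5 corn oil livers (blue) and 5 DCB livers (red), with the mean as a bar and the SD as a line. All 5 red points of each gene lie above its 5 blue points, with Cyp2b10 rising by 6.47 and Gsta2, the last of the 12, by 2.23.

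Of the 33 measured genes of a list of CAR targets, 21 rose, where 2.15% of all genes tested did, and none fell. Their median difference was 0.74 against 0.02 over all genes tested. Among the other P450s, several of the Cyp2c family rose, with Cyp2c54 up by 1.58, Cyp2c37 by 1.55 and Cyp2c65 by 1.43. Members of that family have close sequences and can share signal between probe sets, so that the single members are uncertain. In the 37 control livers of the series without the hCAR/hPXR genotype, Cyp2c65 was at 3.24 to 3.99, near the floor of the array. The size of its rise is therefore not exact. Among the conjugating and hydrolysing enzymes on the list, Ephx1, the microsomal epoxide hydrolase, rose by 0.74, Ugt2b34, a glucuronosyltransferase, by 0.55, and Aldh1a1, a retinal dehydrogenase, by 0.76. Cyp2b9, a P450 usually low in male liver, was at 4.13 to 4.63 in DCB livers and 3.58 to 4.26 in corn oil livers, and did not pass (difference 0.64, adjusted p = 0.73 by limma). With only the 10 arrays in the model that p was 0.0213. The message of CAR itself, Nr1i3, did not pass (0.21, adjusted p = 0.755 by limma).

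The efflux pump Abcc4 (MRP4), which exports conjugates and cyclic nucleotides from hepatocytes into the blood, showed the fourth largest rise. Its level was 10.41, 11.64, 11.47, 10.62 and 12.10 in DCB livers and 6.10, 6.93, 7.69, 6.50 and 5.65 in corn oil livers. Even the lowest DCB liver was well above the highest control. The means differed by 4.68 ± 0.344 (SE), or 25.6-fold (adjusted p = 6.47e-19 by limma). Abcc3 (MRP3), which exports glucuronides to the blood, rose by 0.80, a call lost with only the 3 groups given corn oil in the model (adjusted p = 0.163 by limma). These were the only 2 of 16 efflux transporters that passed the test, where 2.15% of all genes tested rose, and none of the 16 fell.

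Cbr3, a carbonyl reductase that reduces quinones and other carbonyls with NADPH, showed the second largest rise. Its level was 10.99, 11.64, 10.50, 10.60 and 11.43 in DCB livers and 5.58, 5.77, 5.95, 5.56 and 5.57 in corn oil livers. The corn oil livers were alike and near the lower end of the scale, and each DCB liver was higher by more than the whole range of either group. The difference was 5.35 ± 0.309 (SE), or 40.7-fold, with a 95% confidence interval of 4.73 to 5.96 and an adjusted p of 1.21e-24 by limma. The related Cbr1 rose by 1.81, with DCB livers between 12.01 and 12.44 and corn oil livers between 10.11 and 10.75.

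Cbr3 and Abcc4 are both on a list of 39 measured NRF2 targets. Of these, 22 rose, where 2.15% of all genes tested did, and none fell, with a median difference of 0.66. Without DCB liver 1, 23 rose. The list shares 9 measured genes with the CAR list, 8 of which rose, so that the lists are not separate, and 37 of the 73 genes on the CAR, NRF2 or glutathione transferase lists rose. Among the genes on the NRF2 but not the CAR list were Gpx2, a glutathione peroxidase, up by 2.38, and Nqo1, the quinone reductase, up by 2.00. Slc7a11, the cystine importer that feeds glutathione synthesis, rose by 1.50, Blvrb, a biliverdin reductase, by 1.38, and Srxn1, which repairs oxidised peroxiredoxins, by 0.68, a call lost with only these 10 arrays in the model (adjusted p = 0.182 by limma) or the 3 groups given corn oil (0.148). In the NADPH and UDP-sugar branches Pgd, of the pentose phosphate pathway, rose by 0.84, Ugdh, which makes UDP-glucuronate, by 0.95, and Entpd5, a nucleotidase of the endoplasmic reticulum, by 0.87. The call of Pgd was lost with only the 3 groups given corn oil (adjusted p = 0.136 by limma).

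Gpx2 and Slc7a11 varied widely among the treated livers. Gpx2 was at 7.43, 8.67, 7.43, 8.50 and 9.04 in DCB livers against 5.66 to 6.04 in corn oil livers. A second probe set for Slc7a11 rose by 2.35. Slc7a11 was at 4.99, 6.32, 5.32, 4.69 and 7.20 against 4.04 to 4.40, the latter near the floor of the array, so that the size of its rise is not exact. DCB liver 5 was the highest for both, and DCB liver 1 was among the lower, while all 5 stayed above every control.

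Several well-known NRF2 targets did not pass. Hmox1, the inducible heme oxygenase, differed by -0.04 and Txnrd1, a thioredoxin reductase, by -0.03, and the sign of both turned with the setting. For the subunits of the first enzyme of glutathione synthesis, the differences were 0.45 for Gclc (adjusted p = 0.239) and 0.36 for Gclm (adjusted p = 0.051) by limma. Gclm passed without DCB liver 1, where it differed by 0.48 (adjusted p = 0.00668 by limma). The plot of differences by gene list shows these members in grey beside the called ones.

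**Figure D2:**
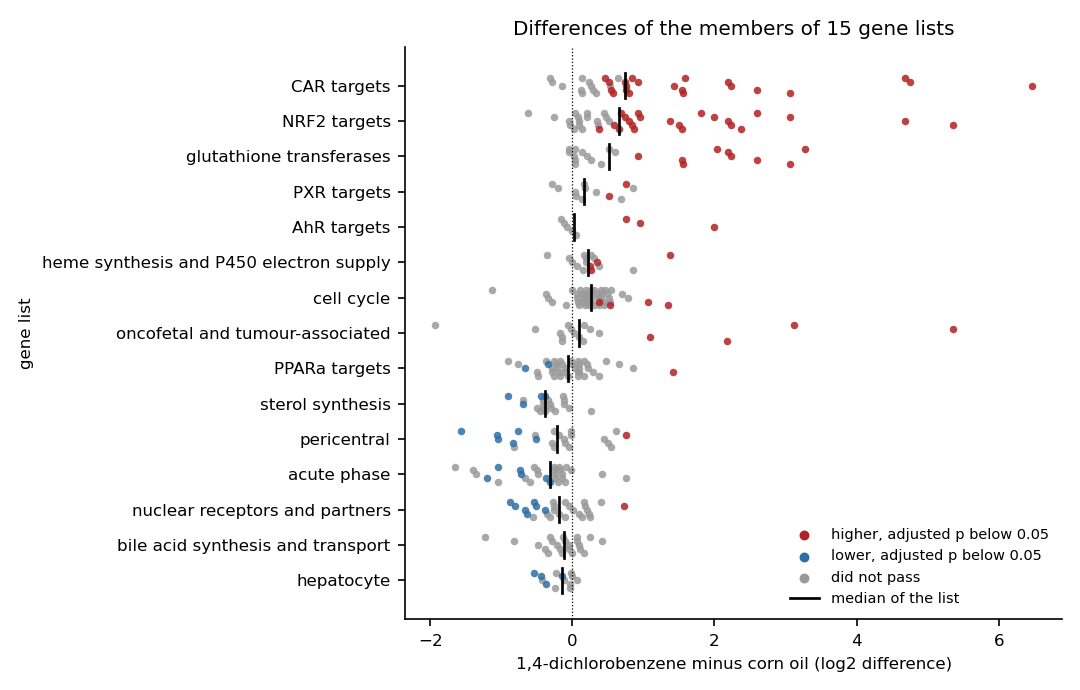
Log2 difference between DCB and corn oil livers (horizontal axis) for each measured member of 15 gene lists (vertical axis), in red where higher and blue where lower at an adjusted p below 0.05, in grey otherwise, with the list's median as a black bar; points are spread vertically only to be seen. The medians of the CAR and NRF2 targets lie at 0.74 and 0.66, while called members of the pericentral and acute phase lists, apart from 1 pericentral gene, lie to the left of 0.

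The promoters of the genes that carry these results were read from RefSeq windows of 300 bases on GRCm38.p6, from 250 bases before to 50 after each start site. They were searched on both strands for TGACNNNGC, the core of the antioxidant response element. A window was found for 19 of the 22 NRF2 targets that rose, and 4 of these genes held the motif, in 5 of their 25 windows (20%). The motif was in 13.9% of the 18109 windows of genes tested, in 17% of the windows of genes that rose and in 13.4% of those of genes that fell, and in 12.4% of all 32851 windows. For Abcc4 and Ugdh the stretch of 150 bases before the start site is printed with the motif in capitals, and for Cyp2b10 and Cbr3, whose windows held no match, the same stretch is printed with none. All are given 5' to 3' on the strand of the gene.
Abcc4, first start site (chr14:118706220-118706369, minus strand): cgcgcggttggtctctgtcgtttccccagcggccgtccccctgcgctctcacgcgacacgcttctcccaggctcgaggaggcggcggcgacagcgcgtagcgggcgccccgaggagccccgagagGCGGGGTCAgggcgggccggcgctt
Abcc4, second start site (chr14:118676932-118677081, minus strand): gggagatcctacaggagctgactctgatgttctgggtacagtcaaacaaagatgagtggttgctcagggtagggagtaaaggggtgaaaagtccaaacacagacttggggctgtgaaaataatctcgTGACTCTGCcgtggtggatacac
Ugdh (chr5:65435843-65435992, minus strand): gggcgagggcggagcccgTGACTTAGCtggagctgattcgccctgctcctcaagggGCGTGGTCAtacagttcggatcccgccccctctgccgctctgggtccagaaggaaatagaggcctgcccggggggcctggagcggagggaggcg
Cbr3 (chr16:93683069-93683218, plus strand): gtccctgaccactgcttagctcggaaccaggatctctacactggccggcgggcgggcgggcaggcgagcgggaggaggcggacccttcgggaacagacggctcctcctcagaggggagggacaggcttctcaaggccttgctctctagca
Cyp2b10 (chr7:25897508-25897657, plus strand): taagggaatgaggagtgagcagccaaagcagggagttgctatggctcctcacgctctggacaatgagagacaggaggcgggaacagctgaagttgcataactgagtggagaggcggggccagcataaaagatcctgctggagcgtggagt
The motif began 25 bases before the first start site of Abcc4, on the opposite strand, and 23 bases before the second. In Ugdh it began 132 and 94 bases before the start site, on opposite strands. A match describes the letters only, and windows without one say nothing of elements that lie farther away.

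Several enzymes that join electrophiles to glutathione rose. Of 21 measured glutathione transferases and microsomal relatives, 9 rose, where 2.15% of all genes tested did, and none fell, with a median difference of 0.51. In the mu class Gstm3 rose by 3.06, Gstm2 by 2.6 and Gstm4 by 2.19, and in the alpha class Gsta2 rose by 2.23 and Gsta4 by 1.55. Gstm and Gsta genes are close in sequence, so single members may share signal. Gstt3, of the theta class, rose by 1.56. The other 12 of the 21 did not pass, among them Gstp1, of the pi class, and Mgst1, a microsomal member, both with a difference of 0.04.

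Mgst2, a membrane-bound glutathione transferase that also makes leukotrienes, was low in controls, at 4.46, 4.62, 4.71, 4.74 and 4.55. In DCB livers it was at 8.20, 7.10, 8.37, 7.63 and 8.13. Even DCB liver 2, the lowest of its group, was far above all controls, and the difference of 3.27 ± 0.133 (SE) had the lowest adjusted p of all, 2.3e-34 by limma. The related Mgst3 rose by 2.04, with DCB values from 10.99 to 12.01 and corn oil values from 9.44 to 9.85, and its other probe set rose by 0.51.

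Of 12 targets of the pregnane X receptor (PXR) 2 rose, where 2.15% of all genes did: Aldh1a1 by 0.76 and Ces2a by 0.52, and both are also on the CAR list. Ces2a lost its call without corn oil liver 1 (0.38, adjusted p = 0.0628 by limma), with only these 10 arrays in the model (0.0828) and with only the 3 groups given corn oil (0.0783). Cyp3a11, the main Cyp3a enzyme of mouse liver, was near the top of the scale in both groups, at 14.71 to 14.82 against 14.51 to 14.67 (difference 0.16, adjusted p = 0.0565 by limma). Without DCB liver 5 that p was 0.0498, with a difference of 0.18. Of 8 targets of the aryl hydrocarbon receptor 3 rose, Nqo1, Ugdh and Cyp1a2, the last by 0.76, while Cyp1a1, its most inducible target, differed by 0.05 and changed sign with the setting.

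Of 16 genes of heme synthesis and electron supply, 4 rose, where 2.15% of all genes tested did, and none fell. Besides Blvrb these included Pgrmc1, a heme-binding partner of P450s, up by 0.26, and Cyb5a, a cytochrome b that passes electrons to P450s, up by 0.25, the latter losing its call with only these 10 arrays in the model (adjusted p = 0.0655 by limma). Alas1, which sets the rate of heme synthesis, was at 12.60, 12.60, 11.86, 12.64 and 12.73 in DCB livers and 11.11 to 12.12 in corn oil livers. All DCB livers but DCB liver 3 were above every control, and the adjusted p of the difference of 0.86 was 0.347 by limma, or 0.0391 with only these 10 arrays in the model. Slc48a1, a heme transporter of lysosomes, was chosen after its values were seen and rose by 1.65, with DCB values of 9.56 to 10.69 against 8.23 to 9.05. Cyp26a1, which breaks down retinoic acid and was chosen in the same way, rose by 1.73, with 9.36 to 9.97 against 7.63 to 8.19.

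Afp, alpha-fetoprotein, a serum protein of fetal liver that is low in adult liver and returns in regeneration and tumours, rose in every DCB liver. Its level was 9.53, 9.51, 8.49, 8.59 and 9.35 in DCB livers and 4.98, 6.27, 6.91, 6.98 and 4.72 in corn oil livers. The controls spread more widely than the treated livers, without reaching them. The difference was 3.12 ± 0.390 (SE), or 8.69-fold, with an adjusted p of 7.29e-09 by limma. Of 5 probe sets for Afp, 2 others rose as well, by 2.39 and 2.16, and the remaining pair differed by 0.23 and -0.03.

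Of 17 genes on a list of oncofetal and tumour-associated genes, 4 rose and none fell: Cbr3, Afp, Ly6d and Gpc3. The share of all genes tested that rose was 2.15%. Ly6d, a membrane protein of the Ly6 family, was at 7.42, 9.82, 8.37, 7.42 and 8.73 in DCB livers and 6.06 to 6.27 in corn oil livers, a rise of 2.18 (adjusted p = 0.0534 by limma with only the 3 groups given corn oil in the model). Gpc3, glypican 3, a heparan sulfate proteoglycan of fetal liver and liver cancer, was at 5.01, 5.73, 6.27, 6.56 and 5.99 against 4.60 to 5.07, a rise of 1.10. For Gpc3, DCB liver 1 lay within the range of the controls and the other 4 above it.

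Other large rises had no list in common. Amn, amnionless, a partner of cubilin in protein uptake, rose by 2.62, with DCB values from 6.60 to 8.01 and corn oil values from 4.38 to 4.86. Meig1, known for its role in spermatid development, rose by 2.35 (5.21 to 7.02 against 3.65 to 4.01). Its corn oil values were near the floor of the array, so that this is not an exact size. Osbpl3, an oxysterol-binding protein, rose by 1.64, Lgals1, galectin-1, by 1.56, and Hspb1, a small heat shock protein, by 1.22. Smpx, a small muscle protein, was at 4.30 to 5.55 in DCB livers and at 3.26 to 3.59, near the floor of the array, in corn oil livers, so that the fitted difference of 1.50 is not an exact size. Lgals1 and Smpx were chosen after their values were seen.

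Of 45 cell cycle genes, 4 rose and none fell, with a median of 0.26 and 40 of the 45 above 0. Of all genes tested, 2.15% rose and 1.67% fell. Ect2, which controls cytokinesis, rose by 1.35 and Mcm6, part of the replicative helicase, by 1.07. One of 2 other probe sets for Mcm6 differed by 0.04. Smaller rises of Cks2 (0.53) and Uhrf1 (0.37) were lost without DCB liver 1, with adjusted p-values of 0.191 and 0.184 by limma, and that of Uhrf1 without DCB liver 2 or 3 or corn oil liver 2, 3 or 5 as well (adjusted p = 0.0559 to 0.226). With only these 10 arrays in the model the adjusted p-values of Cks2 and Uhrf1 were 0.138 and 0.154 by limma, and with only the 3 groups given corn oil 0.168 and 0.169. Cdk1, the mitotic kinase, differed by 0.79 with an adjusted p of 0.0665 by limma and with DCB values of 7.45 to 7.91 against 6.63 to 7.10, and it passed with only these 10 arrays in the model (adjusted p = 0.00779). Mki67 differed by 0.49 (adjusted p = 0.576) and Ccnd1, cyclin D1, by -1.13 (adjusted p = 0.0922), which passed without DCB liver 2 (-1.39, adjusted p = 0.0304) or corn oil liver 5 (-1.38, adjusted p = 0.0417), all by limma. Of 22 p53 targets and stress genes only Ccng1 passed, up by 0.51, and not without DCB liver 1 (adjusted p = 0.118) or DCB liver 4 (adjusted p = 0.0695), with only these 10 arrays in the model (0.178) or with only the 3 groups given corn oil (0.188), by limma.

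The genes of the last rows of hepatocytes around the central vein include those that make glutamine. Of 22 such pericentral genes 6 fell and 1, Cyp1a2, rose, where 1.67% of all genes tested fell and 2.15% rose. Glul, glutamine synthetase, was at 12.26, 11.12, 11.55, 12.18 and 10.50 in DCB livers and 12.90, 12.38, 12.55, 12.27 and 12.80 in corn oil livers. The groups touch without overlapping, since DCB livers 1 and 4 were just below the lowest control and DCB liver 5 was lowest. The difference was -1.06 ± 0.183 (SE), with an adjusted p of 3.42e-05 by limma, and 0.0685 with only these 10 arrays in the model.

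Slc1a2, the glutamate importer of the same cells, was at 9.08, 8.43, 8.79, 9.58 and 7.79 in DCB livers and 10.87, 10.23, 10.45, 9.69 and 10.23 in corn oil livers. DCB liver 4 was the closest to the controls and DCB liver 5 the farthest, as it was for Glul. Slc1a2 fell by 1.56 on the log2 scale, the third largest fall, and lost its call with only the 3 groups given corn oil in the model (adjusted p = 0.0715 by limma). Of its 4 other probe sets, 1 fell, by 1.01 on the log2 scale, and the differences of the rest ran from -0.40 to 0.09. Oat, ornithine aminotransferase, fell by 1.04, Notum, a secreted inhibitor of Wnt ligands, by 0.83, and Lhpp, a phosphatase, by 0.77. The calls of Oat and Lhpp were lost with only these 10 arrays in the model (adjusted p = 0.0531 and 0.089 by limma) or the 3 groups given corn oil (0.0593 and 0.0759). Gulo, of vitamin C synthesis, fell by 0.51, a call lost without DCB liver 1, 2 or 5 or corn oil liver 1, 2 or 5, with adjusted p-values from 0.0564 to 0.213 by limma, or with only these 10 arrays (0.089) or the 3 groups given corn oil (0.158). Other pericentral genes did not pass, among them Cyp2e1 (-0.11) and the Wnt target Axin2 (-0.18). Cyp2e1 was at 14.47 to 14.62 in DCB livers, near the top of the scale, where RMA compresses differences. With only the 10 arrays in the model, 2 of the 22 genes fell.

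**Figure D3:**
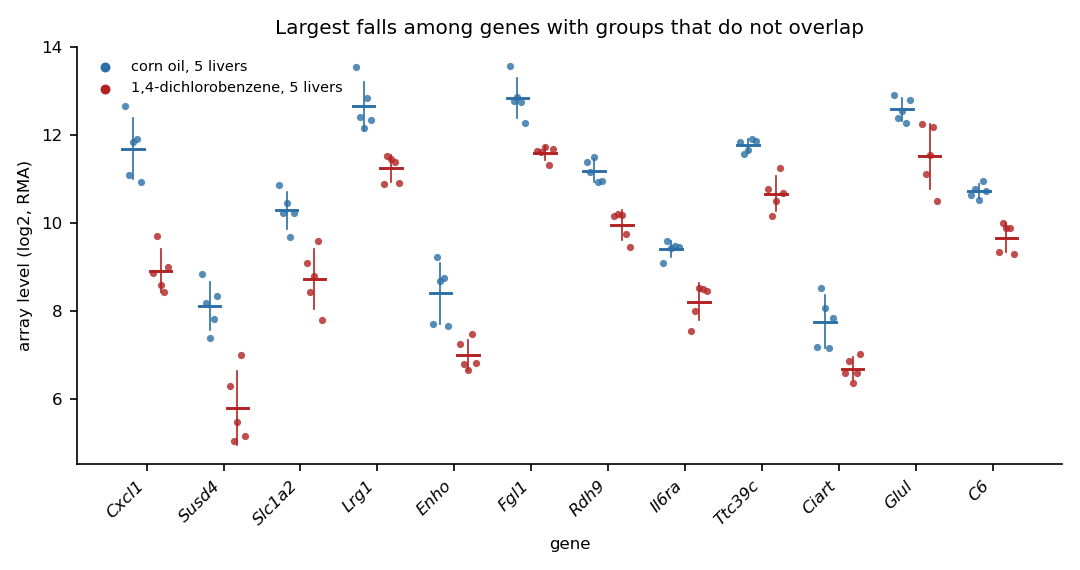
Log2 array level (vertical axis) of the 12 genes with the largest falls, among called genes whose groups do not overlap, in each of the 5 corn oil livers (blue) and 5 DCB livers (red), with the mean as a bar and the SD as a line. The choice set that the red points lie below the blue ones for each gene; for Glul the highest DCB liver, at 12.26, and the lowest corn oil liver, at 12.27, nearly meet.

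The other large falls included secreted proteins that the liver makes in inflammation. Lrg1, a leucine-rich serum glycoprotein, was at 10.89, 11.52, 11.46, 11.38 and 10.92 in DCB livers and 13.54, 12.42, 12.15, 12.83 and 12.33 in corn oil livers. Corn oil liver 1 was the highest of all. Lrg1 fell by 1.42 and Fgl1, a fibrinogen-like hepatokine, by 1.24, the latter call being lost without corn oil liver 1 (-1.06, adjusted p = 0.0615 by limma). With only the 3 groups given corn oil the adjusted p-values of Lrg1 and Fgl1 were 0.0705 and 0.0759 by limma. C6, of the complement cascade, fell by 1.05, but not without DCB liver 1 (-0.96, adjusted p = 0.0507 by limma).

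Cxcl1, a neutrophil-attracting chemokine, showed the largest fall, with a difference of -2.77. It was at 8.87, 9.70, 8.59, 8.44 and 9.0 in DCB livers and 12.65, 11.10, 11.85, 11.92 and 10.93 in corn oil livers. Over all 37 control livers of the series without the hCAR/hPXR genotype, the corn oil livers included, it ran from 7.44 to 13.35 with a median of 10.07. The DCB livers lay within that range. Without corn oil liver 1 the adjusted p rose from 0.0141 to 0.0528 (-2.53), and with only the 3 groups given corn oil to 0.0849, by limma. Of its other 2 probe sets 1 fell, by 2.80 on the log2 scale, and 1 differed by -1.12 (adjusted p = 0.156 by limma over all probe sets).

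Of 29 acute phase genes 6 fell, where 1.67% of all genes tested did, and none rose. The median difference was -0.31, with 27 of the 29 below 0. Saa4, a serum amyloid A of lipoproteins, fell by 1.04, Itih4 and Itih3, inhibitor heavy chains, by 0.72 and 0.73, and Il6ra, the interleukin 6 receptor, by 1.20. The fibrinogen chains Fgb and Fga fell by 0.37 and 0.31. Without DCB liver 1, 2 of the 29 fell, and the adjusted p-values of Il6ra, Itih3, Fgb and Fga were then 0.0574, 0.11, 0.0717 and 0.285 by limma. A second probe set for Il6ra differed by -0.10. With only the 3 groups given corn oil in the model the adjusted p-values of Saa4, Itih4, Itih3, Fgb and Fga were 0.0862, 0.0716, 0.0776, 0.137 and 0.265, and with only these 10 arrays those of Fgb and Fga were 0.0782 and 0.203, by limma. The call of Fga was also lost without DCB liver 4 or corn oil liver 1, 2, 3 or 4 (adjusted p = 0.0514 to 0.0681 by limma). The inducible members Saa1 (-1.39, adjusted p = 0.526) and Socs3 (-1.65, adjusted p = 0.102) did not pass with limma, although Socs3 did with only these 10 arrays in the model (adjusted p = 0.0254). The mean of the list ran from 10.50 to 11.01 in DCB livers and from 10.65 to 11.65 in corn oil livers, so these ranges overlap.

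Susd4, a complement inhibitor that is higher in male liver, fell by 2.31, with DCB values of 5.04 to 7.01 and corn oil values of 7.38 to 8.84. Its other probe set differed by -1.20 (adjusted p = 0.0615 by limma over all probe sets). Of 20 male-biased genes it was 1 of 3 that fell, with Igf1, the growth hormone target, down by 0.36 and its carrier Igfals by 0.55. The share of all genes tested that fell was 1.67%. The call of Igfals was lost without DCB liver 1 (-0.47, adjusted p = 0.0599 by limma), with only these 10 arrays in the model (0.102) and with only the 3 groups given corn oil (0.149). None of 17 female-biased genes passed limma's test, and 4 had an unadjusted p below 0.05, where 14.9% of all genes tested had. Further large falls were those of Enho, the peptide hormone adropin (1.40), Rdh9, a retinol dehydrogenase (1.24), and Ttc39c (1.10). Ciart, a repressor of the circadian clock, fell by 1.07, a call lost without corn oil liver 2 (-0.87, adjusted p = 0.0848 by limma) and with only the 3 groups given corn oil (0.0654). Its DCB values of 6.37 to 7.03 lay within the range of the 37 control livers without the hCAR/hPXR genotype, 5.17 to 8.53. Among the 12 largest falls, the DCB values of Enho, Fgl1, Rdh9, Il6ra and C6 also lay wholly within the range of those controls. The DCB values of Susd4, Slc1a2 and Ttc39c lay within it in part. For Lrg1 and Glul the highest DCB values, 11.52 and 12.26, were just below the lowest controls, 11.55 and 12.27.

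Several hepatic transcription factors were lower. Of 27 nuclear receptors and partners 7 fell and 1, Pparg, rose, where 1.67% of all genes tested fell and 2.15% rose. Foxa3, a forkhead factor of liver development, fell by 0.88 and Cebpb, a factor of the acute phase, by 0.81. Rxra, the partner of CAR and many other receptors, fell by 0.63 and Hnf4a, a master regulator of hepatocytes, by 0.54. Ppara, the fatty acid receptor of liver, fell by 0.67, and its other probe sets fell by 0.86 and 0.68. DCB liver 1 had the lowest value for Cebpb, Rxra and Hnf4a, and without it 2 of the 27 fell, with adjusted p-values of 0.147 for Rxra and 0.0758 for Hnf4a by limma. With only these 10 arrays in the model 1 of the 27, Cebpb, fell, and the adjusted p of Foxa3 was then 0.0596 by limma. With only the 3 groups given corn oil those of Foxa3, Rxra and Hnf4a were 0.136, 0.25 and 0.232. The other 2 probe sets for Rxra differed by 0.06 and -0.09, and averaging its probe sets gave -0.22 (adjusted p = 0.111 by limma). Pparg, which drives fat storage, rose by 0.73, and without corn oil liver 2 by 0.62 (adjusted p = 0.0971 by limma).

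Genes of lipid metabolism changed in few places. Of 39 targets of PPARa, the fatty acid receptor of liver, 1 rose and 2 fell, where 2.15% of all genes tested rose and 1.67% fell. Cd36, a fatty acid importer, was at 11.11, 11.22, 11.20, 11.17 and 11.30 in DCB livers and 10.47, 9.56, 10.13, 9.49 and 9.27 in corn oil livers, a rise of 1.42. The DCB livers were nearly equal and the controls spread widely below them. Cpt1a, the gate of mitochondrial fatty acid oxidation, fell by 0.66 (adjusted p = 0.0537 with only these 10 arrays in the model and 0.0654 with only the 3 groups given corn oil, by limma) and Creb3l3, a fasting factor, by 0.34, a call lost without corn oil liver 1 (-0.25, adjusted p = 0.0803 by limma) and in either of those models (0.177 in both).

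Of 20 sterol synthesis genes 4 fell, where 1.67% of all genes tested did, and 19 were below 0, with a median of -0.39. The 4 were Sqle, squalene epoxidase (down 0.91), Hsd17b7 (0.70), Stard4 (0.44) and the factor Srebf2 (0.39). The call of Sqle was lost without DCB liver 1, 3 or 4 or corn oil liver 2 or 3 (adjusted p = 0.054 to 0.08 by limma). That of Srebf2 was lost without DCB liver 1 or 4 or corn oil liver 1 (adjusted p = 0.0574 to 0.0683), and that of Stard4 without DCB liver 4 or corn oil liver 3 (adjusted p = 0.0545 and 0.0526), by limma. With only these 10 arrays in the model the adjusted p-values of Srebf2 and Stard4 were 0.153 and 0.0596. With only the 3 groups given corn oil those of Sqle, Hsd17b7, Stard4 and Srebf2 were 0.0596, 0.0759, 0.0644 and 0.164, by limma. Without DCB liver 1, 2 of the 20 fell. Of 24 fatty acid synthesis genes Fads2, Acaca and Dgat2 fell, and without DCB liver 1 none did, with adjusted p-values of 0.0784, 0.203 and 0.0865 by limma. Acaca also lost its call without DCB liver 4 or corn oil liver 2, 3 or 5 (adjusted p = 0.0978 to 0.157 by limma). With only the 3 groups given corn oil the adjusted p-values of Fads2, Acaca and Dgat2 were 0.0626, 0.377 and 0.182, and with only these 10 arrays those of Acaca and Dgat2 were 0.106 and 0.061, by limma. Averaging the probe sets of a gene gave adjusted p-values of 0.0661 for Stard4, 0.0961 for Fads2 and 0.181 for Acaca by limma. None of 22 genes of bile acid synthesis and transport passed limma's test. An unadjusted p below 0.05 was found for 5 of them, where 14.9% of all genes tested had one. Cyp7a1, the first enzyme of the pathway, differed by -0.82 (adjusted p = 0.325 by limma).

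The same model set the response to DCB beside that to phenobarbital, the reference activator of CAR, given at 0.05% in drinking water for 28 days, with water controls of its own (n = 5 mice in each group). The titles of the phenobarbital livers end in "(2)", which the labels do not explain, and these livers were used as labelled. Route and vehicle went with the compound. Phenobarbital raised 104 genes (0.572%) and lowered 72 (0.396%). Of these, 48 rose after both compounds, which is 12.2% of the rises after DCB and 46.2% of those after phenobarbital. A further 6 fell after both, 1.97% and 8.33%, and none moved in opposite directions. The difference between the responses passed for 154 genes (0.846%), 116 higher after DCB (0.638%) and 38 lower (0.209%), and for 417 genes with array weights. Leaving out 1 liver moved that count by over 1.5 times in 7 cases: to 85, 237, 247 and 101 without DCB livers 1, 2, 3 and 4, to 100 and 101 without corn oil livers 4 and 5, and to 59 without water liver 1.

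Of the 33 CAR targets, 1 had a higher response to DCB by the test of the difference, Gstm4 (1.04), and 3 a lower one, Cyp2b9 (-3.90), Papss2 (-1.25) and Ces2a (-0.71, adjusted p = 0.0206 by limma). Ces2a, a carboxylesterase, rose by 0.52 after DCB and 1.22 after phenobarbital. Its difference lost the call in a model of only these 4 groups (adjusted p = 0.0797) and without DCB liver 1, corn oil liver 2 or 4, phenobarbital liver 4 or water liver 2 (0.0526 to 0.0673), by limma. Cyp2b10 rose by 6.47 after DCB and 7.93 after phenobarbital, and the responses differed by -1.46 (95% confidence interval -2.77 to -0.14, adjusted p = 0.386 by limma). In a model of only these 4 groups the adjusted p of that difference was 0.00347. Cyp2c55 differed by -0.80 (interval -1.85 to 0.24) and Gstm3 by -0.28 (-1.19 to 0.64). Abcc4 differed by 1.61 (adjusted p = 0.0941 by limma), and without corn oil liver 3 by 1.89 (adjusted p = 0.0335). On the CAR list 21 of 33 genes rose after DCB and 25 after phenobarbital, where 2.15% and 0.572% of all genes tested rose.

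Cbr3 differed most, by 3.99 with an adjusted p of 2.24e-10 by limma: it rose by 5.35 after DCB and by 1.35 after phenobarbital. Mgst2 (3.18), Afp (2.83), Amn (2.58) and Gpx2 (2.28) also rose more after DCB, and none of these 4 rose past the test after phenobarbital. Among the 39 NRF2 targets 22 rose after DCB and 10 after phenobarbital, where 2.15% and 0.572% of all genes tested rose. By the test of the difference 6 had a larger response to DCB, where 0.638% of all genes did. These were Cbr3, Gpx2, Gstm4 (1.04), Cbr1 (1.30), Blvrb (1.30) and Slc7a11 (1.39). Slc48a1 differed by 1.49 and Mgst3 by 1.47, the last losing its call without water liver 1 (1.36, adjusted p = 0.0558 by limma). The 4 oncofetal genes that rose all differed too, with Gpc3 at 1.04 and Ly6d at 2.06. They were taken for their rise after DCB, which is itself part of this difference. Among all 392 genes that rose after DCB, 77 had a larger response than to phenobarbital. In a model of only these 4 groups the adjusted p-values for Slc7a11 and Gpc3 were 0.128 and 0.0797 by limma. Ly6d lost this call without DCB liver 2, phenobarbital liver 2 or water liver 1, with adjusted p-values of 0.0564, 0.0635 and 0.0673 by limma.

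**Figure D4:**
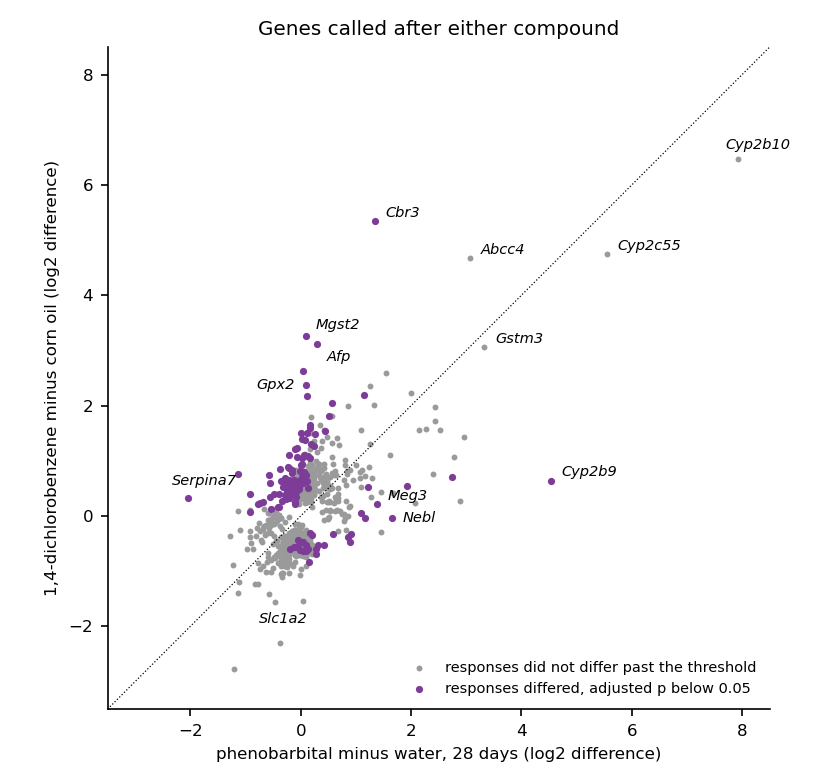
Log2 difference after DCB (vertical axis) against that after 28 days of phenobarbital (horizontal axis) for the genes called after either compound, in purple where the responses differed at an adjusted p below 0.05 and in grey otherwise; the dotted line marks equal responses. Cyp2b10 and Cyp2c55 lie below the line at the upper right, while Cbr3 and Mgst2 lie well above it and Cyp2b9 well below.

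In the other direction, Cyp2b9 rose by 4.54 after phenobarbital and differed by -3.90. None of 4 measured genes of the imprinted Dlk1-Dio3 cluster passed limma's test after DCB, nor had any an unadjusted p below 0.05. Meg3, a noncoding RNA of that cluster, rose by 1.38 after phenobarbital and differed by 0.21 after DCB, where it did not pass, so that the responses differed by -1.17 (adjusted p = 0.00693 by limma). The responses of Fam47e (-1.87), Nebl (-1.70), Cyp2g1 (-1.38), Syt1 (-1.37) and Papss2 (-1.25), the last a sulfate donor synthase, differed likewise. The call of Cyp2g1 was lost without most single livers (adjusted p up to 0.11 by limma) and that of Papss2 without water liver 1 (adjusted p = 0.0535). Averaging the probe sets of a gene gave -0.59 for Nebl (adjusted p = 0.0553 by limma). In DCB livers Nebl (3.75 to 4.4) and Cyp2b9 (4.13 to 4.63) were near the floor of the array. Their differences are therefore not exact sizes. Serpina7, the thyroxine-binding globulin, fell by 2.04 after phenobarbital and differed by 0.33 after DCB, a difference of 2.37.

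Cyproterone acetate, an antiandrogen given at 160 mg/kg in the same vehicle and by the same route, differed directly from DCB in 748 genes, 432 higher after DCB (2.37%) and 316 lower (1.74%), or 366 and 403 with each array centred on its median. The count was 239 with only the groups compared in the model and 1186 with array weights. Cbr3 was higher after DCB by 4.91, Abcc4 by 4.89, Mgst2 by 3.22 and Afp by 2.87, Sult1e1, the estrogen sulfotransferase, was lower by 6.25 on the log2 scale, and Cyp2b10 did not differ past the test (0.88, adjusted p = 0.388 by limma).

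Across all 19 groups, the level of Mgst2, Afp, Amn, Slc48a1 and Smpx in every DCB liver was above that in each of the other 86 livers, whose highest values were 5.97, 8.37, 6.16, 9.45 and 3.63. For Cbr3 and Abcc4, 1 other liver reached the lowest DCB liver, in both cases after 56 days of phenobarbital, at 11.27 and 11.23. Cyp2b10 reached the lowest DCB level in 16 other livers. Glul was at or below the highest DCB level in 4 others. These groups differ in vehicle, route and in some cases genotype, and the ranks are a description without a test.

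**Figure D5:**
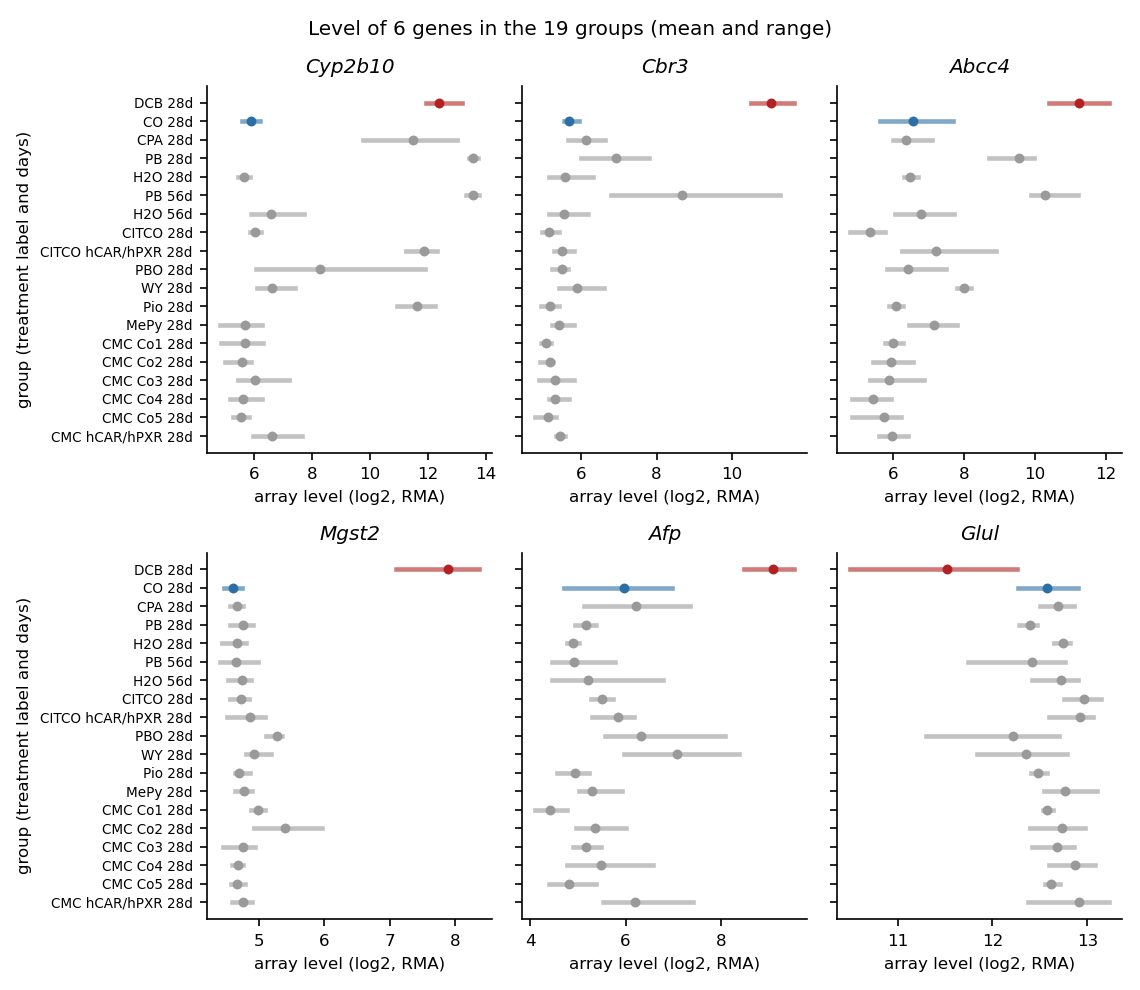
Log2 array level (horizontal axes) of 6 genes in the 19 groups of the series (vertical axis, with treatment labels and days), with the mean as a point and the range of its livers as a line, DCB in red, corn oil in blue and other groups in grey. Cyp2b10 is high after several compounds, while the DCB lines of Mgst2 and Afp lie to the right of all others.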

How the data were processed

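Total liver RNA was labelled with a 3' IVT kit and hybridised to Affymetrix arrays, per the labels' protocols. The deposited values are log2 levels that the authors obtained by RMA (background correction, quantile normalization and probe summary), per the submitters' processing notes; its version and the array annotation build are not given in the sources used here. RMA makes arrays alike in distribution and compresses differences near both ends of the scale, and array data have no read depth, so the number of arrays limits the precision. Of 45037 probe sets, 34945 had 1 gene symbol, 932 had several and 9160 are unnamed here. The probe set with the highest mean stood for each of 18193 genes.

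A model of the means of all 19 groups (91 arrays) was fitted with limma 3.58.1 in R 4.3.3, with a mean-variance trend, and p-values were adjusted by Benjamini-Hochberg over all genes, with a threshold of 0.05. The procedure was tested on simulated data. Replicate numbers of the DCB and corn oil groups are not stated to pair the livers, and the main model did not pair them. Named genes were the 12 largest rises and falls with groups that do not overlap, up to 6 called and 2 uncalled members of each list, a fixed set of known genes and the 6 largest differences each way from phenobarbital and from cyproterone acetate; clone names were passed over. Slc7a11, Srxn1, Txnrd1, Gclc, Gclm, Cbr1, Gsta4, Slc48a1, Smpx, Cyp2c37, Cyp2c54, Cyp2c65, Gstt3, Pgd, Entpd5, Lgals1, Cyp26a1, Saa1, Gulo and Axin2 were picked or kept after their values were seen. The comparison, gene lists and tests were chosen with earlier results of these data known. Alternatives were a model of only the groups compared, with and without a replicate block, only the gavaged cohort, all or averaged probe sets, a level filter, no trend, robust variances, centring, array weights and each array left out; list counts without single arrays were added after seeing the data. Promoters came from RefSeq (GRCm38.p6).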

Additional observations from a re-analysis of the deposited data

Results flagged for a closer look

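In 11 of 242 groups of 5 livers, 1 liver lay far from the others of its group, where chance gives about 1 in 20. The number of such groups was thus close to what chance gives. DCB liver 1 was that liver in 5 of them: it had the lowest Hnf4a (11.48), Cebpb (10.79), Rxra (9.14) and Axin2 (5.66) and the highest Ugt2a3 (12.10). Among the other DCB livers, DCB liver 2 was low for Cyp2b9 (4.13), DCB liver 3 for Alas1 (11.86) and DCB liver 4 for Fgl1 (11.32). Among corn oil livers, liver 1 was high for Oat (13.67), liver 4 low for Abcc3 (10.30) and liver 5 low for Fga (13.83). The part of these single livers in the results was not tested beyond the values given without them.

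The 23 genes listed here differed between the responses to DCB and phenobarbital by the test of the difference itself, with limma and adjustment over all genes. Hspb1, Clock and Ugt2a3, also named in the text, passed that test too. Over all genes tested 154 passed (0.846%). Some genes were named because they differed most from phenobarbital, so the number listed is not a share to set beside that. The response to DCB was larger by 3.99 (log2) for Cbr3, 3.18 for Mgst2, 2.83 for Afp, 2.58 for Amn, 2.37 for Serpina7, 2.28 for Gpx2 and 2.06 for Ly6d. It was larger by 1.49 for Slc48a1 and Smpx, 1.47 for Mgst3, 1.39 for Slc7a11, 1.30 for Cbr1 and Blvrb and 1.04 for Gstm4 and Gpc3. The difference was -3.90 for Cyp2b9, -1.87 for Fam47e, -1.70 for Nebl, -1.38 for Cyp2g1, -1.37 for Syt1, -1.25 for Papss2, -1.17 for Meg3 and -0.71 for Ces2a. Smpx and Slc7a11 were near the floor of the array without DCB, so that their values are not exact sizes. In the 37 controls without the hCAR/hPXR genotype the medians of Cyp2b9 (3.87), Nebl (3.99), Amn (4.54) and Mgst2 (4.75) were low as well. Their differences are not exact sizes either.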

How the results depend on the processing

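The count of 696 genes that differed between DCB and corn oil was 320 with only the 10 arrays in the model, 346 when the replicate number was added as a block, and 230 with only the gavaged corn oil cohort; it ran from 394 to 935 when single livers were left out. The deviations of same-numbered DCB and corn oil livers had correlations of 0.183, 0.116, 0.223, -0.011 and -0.273. These were not set beside correlations between unlike numbers, so they cannot decide whether the numbers pair the livers. The labels state no pairing. The difference from phenobarbital was called for 417 genes with array weights and for 59 to 247 without single livers (154 otherwise). The difference from cyproterone acetate was called for 239 genes with only the groups compared, 204 with the block and 1186 with weights (748 otherwise). Of 96 genes named as changed, 45 were called under every setting tried, and 64 with each array left out in turn. Without DCB liver 1, 23 lost their call, with only the groups compared 29, and with only the gavaged cohort 40; the cause was not tested. The sign turned only for genes that had not passed: Hmox1 ranged from -0.29 to 0.21 without single livers, Txnrd1 from -0.12 to 0.05, Cyp1a1 from -0.11 to 0.15 and Nebl from -0.13 to 0.06. Averaged probe sets gave 0.04 for Txnrd1 and 0.01 for Nebl, and array weights gave 0.05 for Txnrd1 and -0.09 for Cyp1a1.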

Other observations

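Genes that conjugate phenols, the class of compound that DCB is oxidised to, changed in part. Of 23 measured members 5 rose and 2 fell, where 2.15% of all genes tested rose and 1.67% fell. Besides Ugdh and Ugt2b34, Sult1d1, a sulfotransferase, rose by 0.65 and Ugp2, which makes UDP-glucose, by 0.52; without DCB liver 1 their adjusted p-values were 0.123 and 0.0686 by limma, and without DCB liver 4 that of Sult1d1 was 0.0605. The UDP-glycosyltransferases Ugt2a3 and Ugt3a2 fell by 0.35 and 0.43. Leaving out DCB liver 2, 4 or 5 or corn oil liver 4 ended the call of Ugt2a3 (adjusted p = 0.0533 to 0.0928 by limma). Leaving out DCB liver 1, 2 or 5 or corn oil liver 1, 2, 3 or 5 ended that of Ugt3a2 (adjusted p = 0.0572 to 0.165 by limma). With only these 10 arrays in the model the adjusted p-values of Sult1d1, Ugt2a3 and Ugt3a2 were 0.127, 0.267 and 0.061, and with only the 3 groups given corn oil those of Sult1d1 and Ugt2a3 were 0.133 and 0.26, by limma.

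Of 19 clock genes and outputs 1 rose and 2 fell, where 2.15% of all genes tested rose and 1.67% fell. Clock, the partner of Bmal1, rose by 0.60, a call lost without DCB liver 3, 4 or 5 or corn oil liver 1, 2 or 5 (adjusted p = 0.0774 to 0.103 by limma) or with only these 10 arrays (0.124) or the 3 groups given corn oil (0.136) in the model. Averaging probe sets gave 0.30 for Clock (adjusted p = 0.305 by limma). Bhlhe40, a repressor of the clock, fell by 0.81 beside Ciart, and not without DCB liver 1 or corn oil liver 3 (adjusted p = 0.0946 and 0.0542 by limma). With only the 10 arrays in the model 7 of the 19 fell, and the labels give no time of day for the sampling. Of 16 genes of the glucocorticoid response, Klf9 and Errfi1 fell, by 0.59 and 0.76, and neither was called without DCB liver 1 (adjusted p = 0.324 and 0.102 by limma). The call of Klf9 was also lost without corn oil liver 4 (adjusted p = 0.109), with only these 10 arrays (0.177) and with only the 3 groups given corn oil (0.423), and that of Errfi1 with averaged probe sets (adjusted p = 0.0994) and without DCB liver 5 or corn oil liver 1, 4 or 5 (adjusted p = 0.0502 to 0.0668), by limma. Of 24 interferon response genes none passed limma's test, and 2 had an unadjusted p below 0.05, where 14.9% of all genes tested had.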
